A study of Mus musculus with 6 samples.

Results

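Collagen chain genes each encode 1 polypeptide, an alpha chain, of a collagen. They were taken as all protein-coding genes whose mouse symbol reads Col, a number, the letter a and a number. Of the 31384 genes in the deposited table, 44 matched, and each of the 44 had a count in at least 1 library. The filter on low counts left 39 of them for testing. The other 5, Col4a3, Col9a1, Col9a2, Col10a1 and Col19a1, stayed at or below 1.24 CPM (counts as a rate per library, after TMM scaling of the totals) in every library, and Col9a1 had no count in either NTC library. By class, 11 genes encode fibrillar chains, all tested. Another 8 encode chains of the basement membrane collagens IV, XV and XVIII, 7 of them tested, and 25 encode other collagens, 21 of them tested.

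The libraries came from a mouse spermatogonial stem cell line, the self-renewing germ cells of the testis kept in culture, grown on mouse embryonic fibroblasts that mitomycin C had stopped from dividing. In the LOVA group 5 uM lovastatin, a statin that blocks cholesterol synthesis at HMG-CoA reductase, stood in for GDNF. The NTC group had neither, and the PTC group had 10 ng/mL GDNF, the growth factor on which these stem cells depend for self-renewal. All 3 groups had EGF and FGF2 at 10 ng/mL each and LIF, were collected on day 18 and are represented by 2 libraries, named A and B by the letters in the deposited table; where both values of a group are given, A comes first. The study used 1 cell line, and no label states that a group's libraries were separate cultures, so p-values measure only the spread between these libraries, which may be technical. The labels name no step that removed the feeder fibroblasts, and in bulk RNA fewer cells of a type and less RNA per cell cannot be told apart.

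Collagens are built from 3 alpha chains wound into a triple helix. Fibrillar collagens pack side by side into the fibers of connective tissue, type IV collagens form the sheet-like network of basement membranes, and the remaining types decorate fibrils, form beaded filaments or hexagonal nets, or span the cell membrane. Fibroblasts are the chief makers of fibrillar collagen. In the testis, spermatogonia rest on a basement membrane that contains type IV collagen and laminin.

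Total counts lay between 12454671 and 22668087 per library. The 21 feeder fibroblast markers, a list without collagens, took 0.843% and 1.57% of counts in LOVA, 1.01% and 1.63% in NTC and 0.0971% and 0.287% in PTC. Among them Fn1 had the most counts, 37746 and 65295 in LOVA, 35130 and 91188 in NTC and 7212 and 27986 in PTC. Fbln1 had 3166 and 3699 in LOVA, 3086 and 5258 in NTC and 2284 and 4262 in PTC. Values relative to the feeder markers thus lean on these genes most in PTC A, and were not computed without them. The 15 pan-germ-cell markers took 0.339% and 0.191% in LOVA, 0.293% and 0.193% in NTC and 0.491% and 0.496% in PTC. Macrophage markers, 10 genes, took 0.0407% and 0.0476% in LOVA, 0.182% and 0.225% in NTC and 0.0266% and 0.0227% in PTC. Markers of endothelial, Sertoli and peritubular myoid cells took at most 0.0055% in any library. The labelled germ cells were thus present by their markers in every library, beside fibroblast transcripts whose share was lowest in PTC A and higher in the B than in the A library of each group.

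Promoter sequences are shown for 7 members around which the results turn. Col3a1 and Col1a2 had the highest levels per length, Col4a1 and Col4a2 lie head to head with overlapping starts, Col28a1 had the highest called fold change, and Col25a1 and Col17a1 ran the other way. Windows span the annotated start site, come from RefSeq on GRCm38.p6 and are written 5′ to 3′ on the strand of the gene. Capitals mark the motif CCAAT, the motif GGGCGG and the motif TATAAA on either strand. On the opposite strand the first reads ATTGG, the second reads CCGCCC and the third reads TTTATA. No match overlaps a match of another motif in these 7 windows.
Col3a1, chr1:45311288-45311587, plus strand: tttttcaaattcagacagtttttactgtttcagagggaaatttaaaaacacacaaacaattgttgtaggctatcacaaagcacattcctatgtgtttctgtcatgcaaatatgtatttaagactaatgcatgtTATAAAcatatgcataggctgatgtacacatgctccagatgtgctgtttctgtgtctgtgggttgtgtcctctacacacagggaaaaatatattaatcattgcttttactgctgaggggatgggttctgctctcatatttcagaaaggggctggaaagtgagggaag
Col1a2, chr6:4505368-4505667, plus strand: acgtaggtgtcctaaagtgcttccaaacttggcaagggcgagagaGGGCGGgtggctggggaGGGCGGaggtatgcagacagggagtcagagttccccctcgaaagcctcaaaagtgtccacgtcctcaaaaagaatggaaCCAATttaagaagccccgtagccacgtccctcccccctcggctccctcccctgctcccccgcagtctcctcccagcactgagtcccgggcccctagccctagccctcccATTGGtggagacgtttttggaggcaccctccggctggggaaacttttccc
Col4a1, chr8:11312777-11313076, minus strand: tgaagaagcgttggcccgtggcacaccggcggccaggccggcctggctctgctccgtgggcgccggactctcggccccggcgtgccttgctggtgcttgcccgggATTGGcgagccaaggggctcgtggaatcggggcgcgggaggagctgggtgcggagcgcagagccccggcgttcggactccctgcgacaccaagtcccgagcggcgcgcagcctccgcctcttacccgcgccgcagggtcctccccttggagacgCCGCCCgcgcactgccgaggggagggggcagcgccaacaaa
Col4a2, chr8:11312555-11312854, plus strand: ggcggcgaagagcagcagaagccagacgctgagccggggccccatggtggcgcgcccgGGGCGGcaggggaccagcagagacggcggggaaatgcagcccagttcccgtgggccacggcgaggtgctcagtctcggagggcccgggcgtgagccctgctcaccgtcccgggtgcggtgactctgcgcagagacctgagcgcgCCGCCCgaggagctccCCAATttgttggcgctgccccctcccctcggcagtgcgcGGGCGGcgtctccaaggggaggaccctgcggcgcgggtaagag
Col28a1, chr6:8192568-8192867, minus strand: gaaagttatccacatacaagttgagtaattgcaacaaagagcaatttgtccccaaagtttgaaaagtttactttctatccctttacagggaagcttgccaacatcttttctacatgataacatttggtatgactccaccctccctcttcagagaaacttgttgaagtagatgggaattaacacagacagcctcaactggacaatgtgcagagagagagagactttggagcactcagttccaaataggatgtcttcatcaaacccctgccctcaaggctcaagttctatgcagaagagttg
Col25a1, chr3:130180595-130180894, plus strand: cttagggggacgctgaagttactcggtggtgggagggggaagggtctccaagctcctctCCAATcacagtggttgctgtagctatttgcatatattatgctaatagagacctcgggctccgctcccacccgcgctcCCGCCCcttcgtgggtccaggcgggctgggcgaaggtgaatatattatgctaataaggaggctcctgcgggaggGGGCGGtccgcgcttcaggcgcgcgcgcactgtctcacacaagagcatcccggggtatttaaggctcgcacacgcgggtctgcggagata
Col17a1, chr19:47691993-47692292, minus strand: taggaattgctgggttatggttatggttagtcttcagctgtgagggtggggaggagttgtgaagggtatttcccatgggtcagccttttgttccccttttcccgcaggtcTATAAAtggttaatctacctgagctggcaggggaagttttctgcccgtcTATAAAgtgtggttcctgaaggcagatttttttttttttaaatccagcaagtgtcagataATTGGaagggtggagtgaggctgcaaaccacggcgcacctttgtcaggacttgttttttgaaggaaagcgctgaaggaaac

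RefSeq gave 38 windows for 35 members. CCAAT was in 13 of the 38 (34.2%), against 37.4% of all 32851 mouse windows and 37.8% of those of the tested genes. GGGCGG was in 23 (60.5%), against 35.7% of all windows and 59.1% of those of the tested genes. TATAAA was in 5 (13.2%), against 13.6% of all windows and 7.78% of those of the tested genes. The Col3a1 window held a TATAAA and neither other motif, and the Col28a1 window held none of the 3. Col4a1 and Col4a2 are transcribed away from each other from starts 21 bases apart on chromosome 8, and their windows share 78 bases. The other tested type IV pair, Col4a5 and Col4a6, is arranged the same way on chromosome X, with 1343 bases between its starts.

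Per kilobase of transcript, the level of a chain in CPM per kb ranked Col3a1 first in each group. Its mean was 881 CPM per kb in LOVA, 878 in NTC and 139 in PTC. Col1a2 followed with 488, 498 and 85.6 CPM per kb in the same order. Among basement membrane chains, Col4a1 was highest, with 207 CPM per kb in LOVA, 182 in NTC and 31.7 in PTC. Of the other classes, Col6a1 was highest, with 273, 221 and 53.8 CPM per kb in LOVA, NTC and PTC. The 10 highest chains made up 90.0% of the summed collagen level per kb in LOVA, 89.5% in NTC and 87.8% in PTC.

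**Figure D1:**
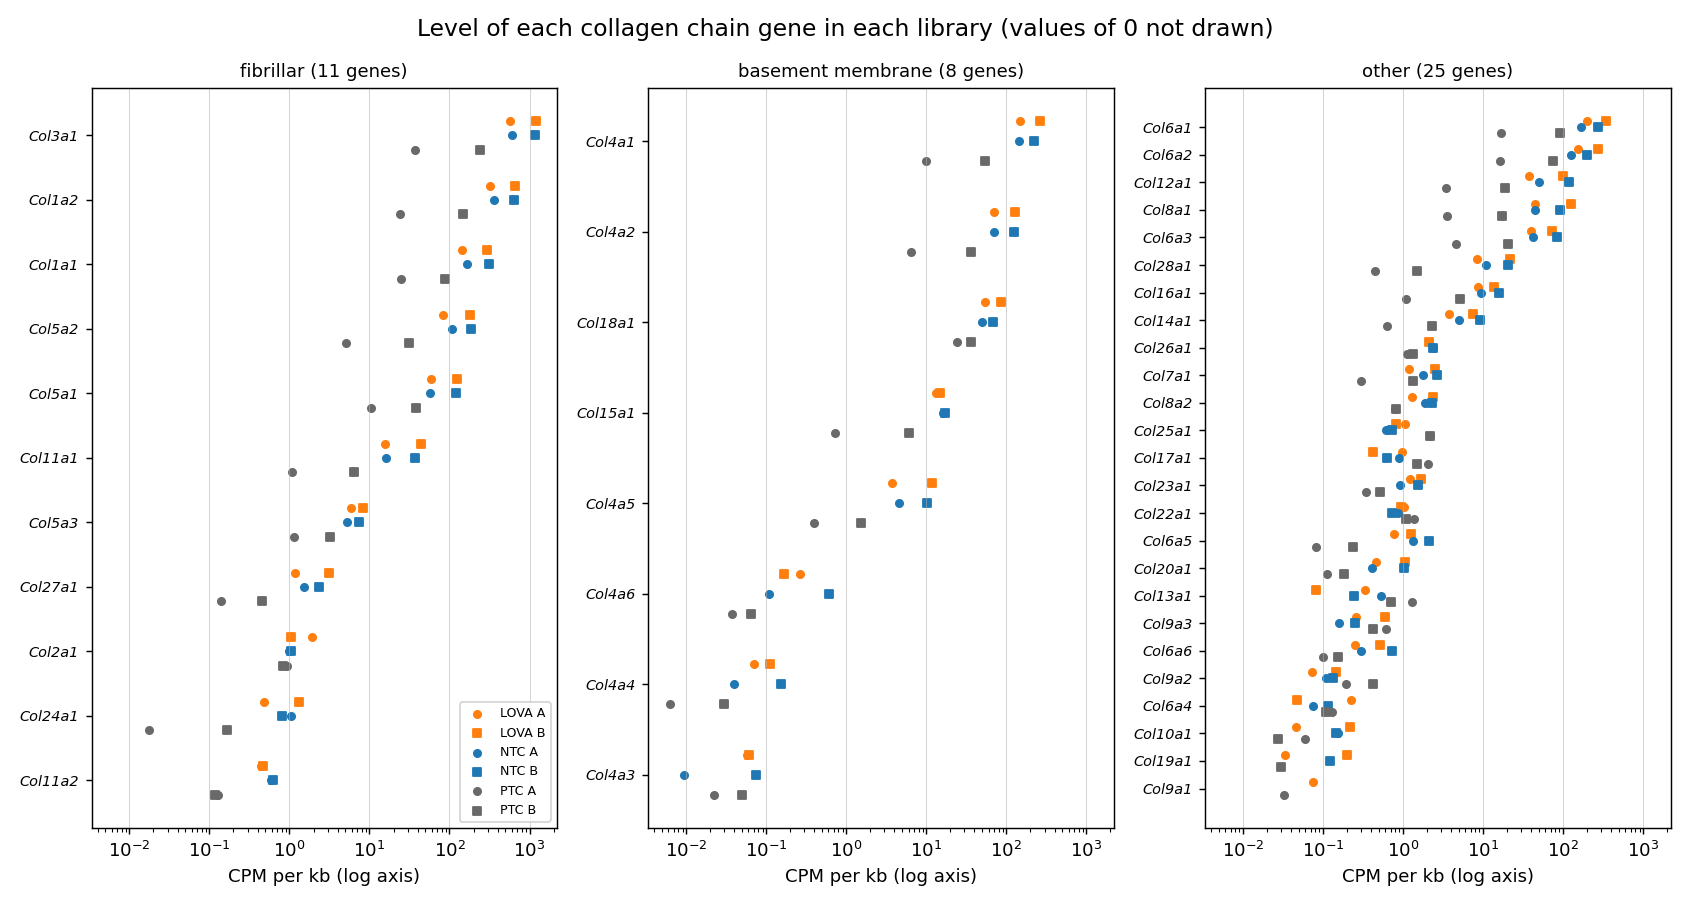
Level of each of the 44 collagen chain genes in each library, in CPM per kb of transcript on a log axis, by class; circles are A and squares B libraries. Col3a1, Col1a2, Col6a1 and Col4a1 lie at the high end, and PTC A is the lowest library for most of the abundant chains.

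Leaving out GDNF (NTC minus PTC) went with higher collagen counts as a share of the library and with a lower mean of collagen counts per feeder marker count. Collagens took 1.21% and 2.06% of counts in NTC, against 0.125% and 0.556% in PTC. The NTC mean was 4.80 times the PTC mean for all collagens, 5.20 times for fibrillar, 3.92 times for basement membrane and 4.40 times for other chains. With 2 libraries against 2, the smallest two-sided exact permutation p is 0.333, so shares are given without a test. For every 100 counts of the feeder markers there were 120 and 126 collagen counts in NTC, against 129 and 194 in PTC.

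Of the 39 tested chains, 15 were called higher in NTC and 1 lower at an adjusted p under 0.05 in edgeR's quasi-likelihood test; among all genes tested, 21.5% were called higher and 12.9% lower. The median log2 fold change of the collagens was 2.18, beside -0.025 for all genes; when libraries were scaled to the feeder markers instead, the collagen median was -0.74, the median of all genes -3.20, and 0 collagens were called higher and 9 lower, while 0.341% and 77.5% of all genes tested were. Scaled to the pan-germ-cell markers, 29 were called higher and 0 lower, beside 30% and 0.273% of all genes tested, with a median of 3.23 beside 0.93 for all genes. For 33 chains both NTC libraries lay above both PTC libraries, as they did for 39% of all genes, and for 5 both lay below, beside 38.5%. DESeq2 called 29 collagens higher and 2 lower, beside 24.3% and 16.1% of all genes tested, and limma-voom called 26 and 1, beside 22.5% and 15.9%. Without NTC B no collagen was called in edgeR. Without NTC A 7 were called higher, without PTC A 4 and without PTC B 23, and none lower in each case; without LOVA A or LOVA B, which share the estimate of spread, 10 were higher and 2 lower.

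**Figure D2:**
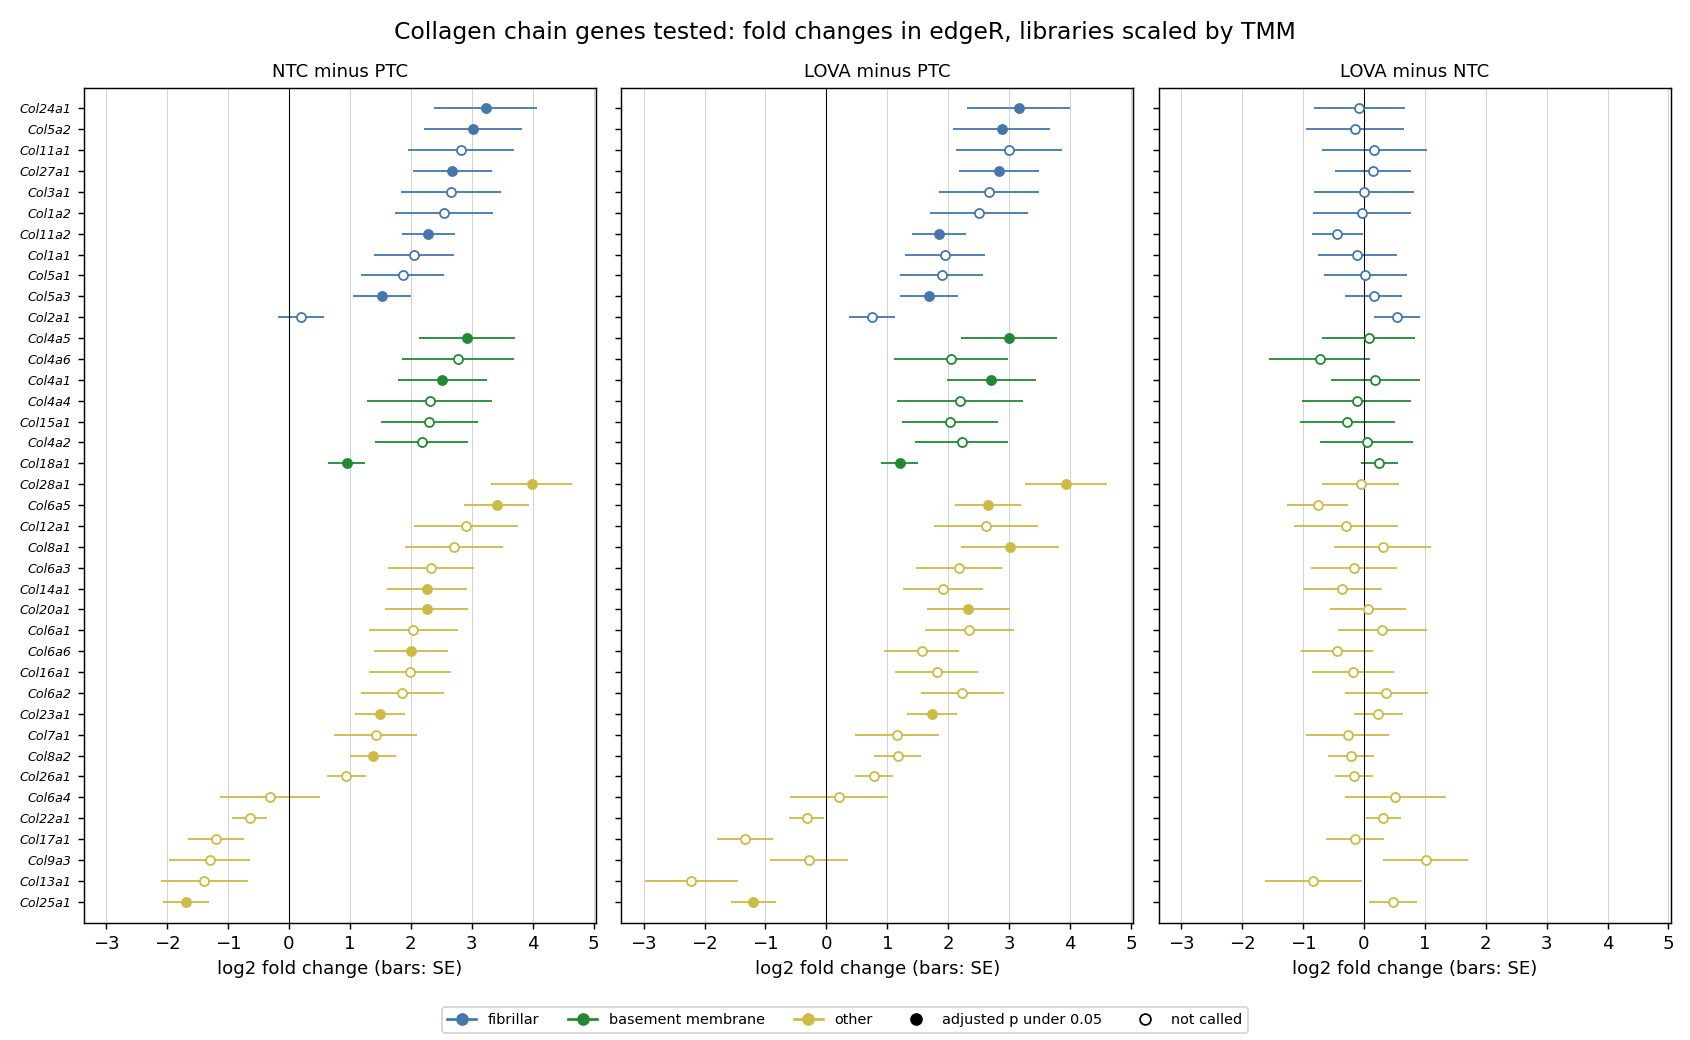
Log2 fold change of each of the 39 tested collagen genes in the 3 contrasts, with SE as bars, by class; filled points had an adjusted p under 0.05. With TMM scaling, chains lie mostly right of 0 in NTC minus PTC and LOVA minus PTC, medians 2.18 and 2.03, and around 0 in LOVA minus NTC, median -0.029. Scaled to the feeder markers, the first pair of medians is -0.74 and -0.60, beside -3.20 and -2.99 for all genes.

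All 11 fibrillar chains had positive fold changes in NTC minus PTC under TMM scaling, with a median of 2.54. Of the 11, 5 were called higher, beside 21.5% of all genes tested. Scaled to the feeder markers, the median was -0.14, with 1 called lower. On that scale the median of all genes was -3.20, and 77.5% were called lower. The 5 called higher were Col24a1, Col5a2, Col27a1, Col11a2 and Col5a3. Of these Col5a2 had the highest counts, below those of Col3a1, Col1a2 and Col1a1. Col5a2, which codes for the alpha 2 chain of type V collagen, a regulator of fibril thickness, had 549 and 1203 CPM in the LOVA libraries, 716 and 1218 CPM in the NTC libraries and 33.7 and 205 CPM in the PTC libraries. Both NTC libraries lay far above both PTC libraries, and it rose by 3.02 (SE 0.80, adjusted p = 0.0400) on the log2 scale. Col24a1, a minor fibrillar chain that overlaps a non-coding gene, had 3.42 and 9.29 CPM in LOVA, 7.57 and 5.74 CPM in NTC and 0.125 and 1.19 CPM in PTC. Its fold change of 3.23 (SE 0.84, adjusted p = 0.0294) rested on 30 counts in the PTC libraries together. Col27a1, another minor chain known from cartilage, had 8.83 and 24.0 CPM in LOVA, 11.5 and 18.0 CPM in NTC and 1.07 and 3.41 CPM in PTC, and rose by 2.68 (SE 0.65, adjusted p = 0.0255). Col11a2, a type XI chain of cartilage fibrils, was low, with 2.35 and 2.49 CPM in LOVA, 3.19 and 3.35 CPM in NTC and 0.690 and 0.639 CPM in PTC, and rose by 2.29 (SE 0.44, adjusted p = 0.0142). Its libraries differed little within a group, in contrast with Col5a2, and Col5a3, the third type V chain, rose by 1.53 (SE 0.48, adjusted p = 0.0482).

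Of the abundant fibrillar chains, Col5a2 passed edgeR's test, as given above. Col1a1, Col1a2, Col3a1 and Col5a1 had large fold changes that did not pass it, and their PTC A and PTC B values lay far apart. Col1a1 (ENSMUSG00000001506, GRCm38 chromosome 11, 94936224 to 94953042), the alpha 1 chain of type I collagen, had 841 and 1761 CPM in the LOVA libraries, 976 and 1827 CPM in the NTC libraries and 147 and 528 CPM in the PTC libraries. On the log2 scale the difference was 2.05 (SE 0.65, adjusted p = 0.0585). Col1a2, the partner chain of type I, had 1694 and 3526 CPM in LOVA, 1932 and 3392 CPM in NTC and 127 and 788 CPM in PTC, a fold change of 2.54 (SE 0.80, adjusted p = 0.0605). Col3a1 (ENSMUSG00000026043, GRCm38 chromosome 1, 45311538 to 45349706), the only chain of type III collagen, had 3159 and 6644 CPM in LOVA, 3321 and 6448 CPM in NTC and 209 and 1335 CPM in PTC. The gap between PTC A and PTC B was wider than that between the A and B libraries of the other groups, and the fold change was 2.66 (SE 0.83, adjusted p = 0.0585). Col5a1, the alpha 1 chain of type V, overlaps a pair of non-coding genes and had 488 and 1045 CPM in LOVA, 478 and 1027 CPM in NTC and 88.4 and 325 CPM in PTC, with 1.86 (SE 0.69, adjusted p = 0.0845). For each of these 4 genes both NTC libraries exceeded both PTC libraries. All 4 were called by the other tools, with an adjusted p of 0.00347 for Col1a1, 0.0306 for Col1a2, 0.0274 for Col3a1 and 0.0113 for Col5a1 in DESeq2 and of 0.0271, 0.0213, 0.0208 and 0.0438 in limma-voom. Col2a1, the main cartilage collagen, had the lowest fibrillar fold change, 0.20 (SE 0.38, adjusted p = 0.710), and Col11a1, the type XI partner of Col11a2, had 2.82 (SE 0.87, adjusted p = 0.0578) and was called with DESeq2 (adjusted p = 0.0299) and limma-voom (adjusted p = 0.0277).

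Basement membrane chains also had positive fold changes throughout under TMM scaling, 7 of 7 with a median of 2.31. Of these chains 3 were called higher, beside 21.5% of all genes tested. Scaled to the feeder markers, their median was -0.38, with 1 called lower, beside -3.20 and 77.5% called lower for all genes. Col4a1 (ENSMUSG00000031502, GRCm38 chromosome 8, 11198423 to 11312826), which with Col4a2 makes the type IV network of most basement membranes, had 976 and 1766 CPM in the LOVA libraries, 944 and 1463 CPM in the NTC libraries and 65.9 and 354 CPM in the PTC libraries. It rose by 2.52 (SE 0.73, adjusted p = 0.0472). Col4a2, read from the same stretch of promoter shown above, had 457 and 829 CPM in LOVA, 450.4 and 795 CPM in NTC and 41.0 and 234 CPM in PTC, and its fold change was 2.18 (SE 0.76, adjusted p = 0.0759). The pair thus had similar fold changes on different sides of edgeR's threshold, and Col4a2 was called with DESeq2 (adjusted p = 0.00589) and limma-voom (adjusted p = 0.0285). Col4a5, the X-linked chain mutated in human Alport syndrome, had 24.3 and 77.8 CPM in LOVA, 30.0 and 66.5 CPM in NTC and 2.57 and 9.97 CPM in PTC, and rose by 2.92 (SE 0.79, adjusted p = 0.0394). Its neighbour Col4a6 was near the limit of detection, with 1.78 and 1.12 CPM in LOVA, 0.717 and 4.06 CPM in NTC and 0.251 and 0.426 CPM in PTC, and a fold change of 2.77 (SE 0.92, adjusted p = 0.0533) that was called with DESeq2 (adjusted p = 0.0174). Col4a4, a chain of the mature kidney network, was lower still and had 2.31 (SE 1.03, adjusted p = 0.106).

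The multiplexins, which carry glycosaminoglycan chains at basement membranes, differed from each other in size of change. Col15a1, type XV, had 67.4 and 76.7 CPM in LOVA, 84.7 and 89.3 CPM in NTC and 3.70 and 31.2 CPM in PTC, a difference of 2.31 (SE 0.79, adjusted p = 0.0720) that was called with limma-voom (adjusted p = 0.0206). Col18a1 (ENSMUSG00000001435, GRCm38 chromosome 10, 77052178 to 77166548), the source of the endostatin fragment, overlaps Slc19a1 and had 305 and 478 CPM in the LOVA libraries, 275 and 382 CPM in the NTC libraries and 136 and 204 CPM in the PTC libraries. It rose by 0.95 (SE 0.30, adjusted p = 0.0497), the smallest change among the basement membrane chains. In PTC A, where type IV chains were lowest, Col18a1 stood at 2.44 times Col4a1 per kb, and in PTC B at 0.683 times. In the other 4 libraries the ratio was between 0.308 and 0.370. Type IV chains alone made up 14.3 and 13.4 counts per 100 feeder marker counts in NTC, against 12.0 and 21.6 in PTC, while all basement membrane chains made up 17.9 and 16.1 in NTC, against 27.3 and 30.1 in PTC.

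**Figure D3:**
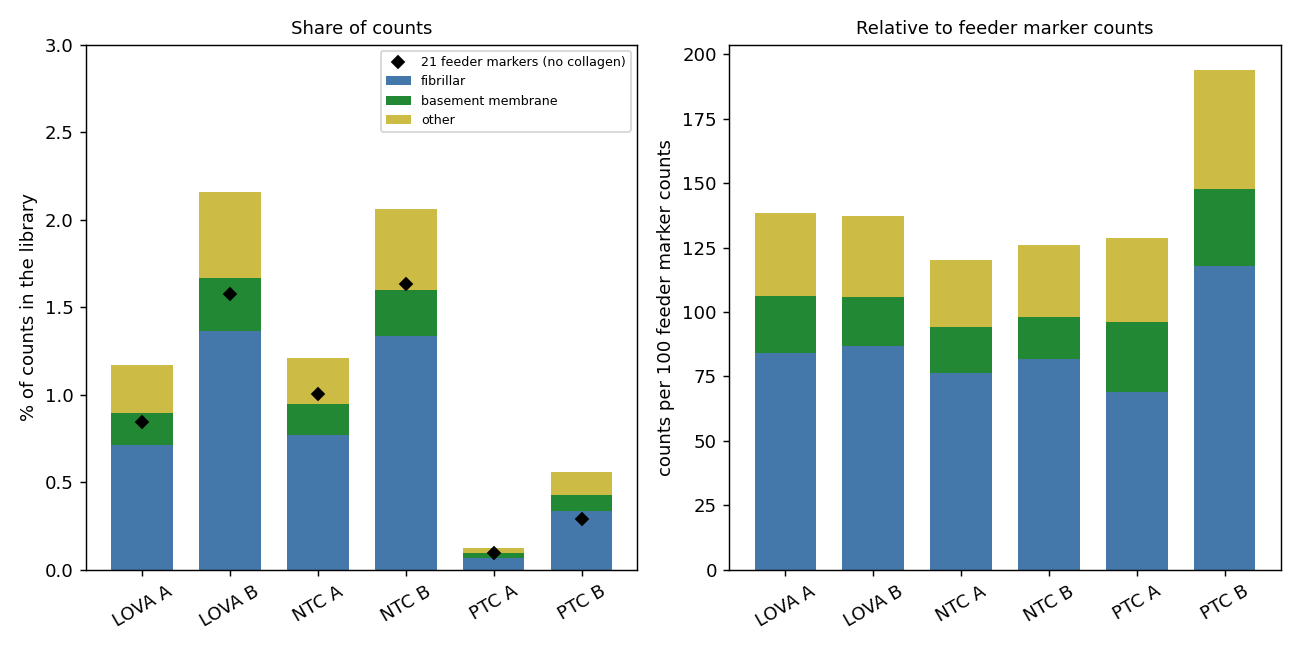
Summed counts of fibrillar, basement membrane and other collagens in each library, as percent of counts (left, with the 21 feeder markers as diamonds) and per 100 feeder marker counts (right). Collagens take 0.125% and 0.556% of counts in PTC A and B and at least 1.17% in the other libraries, but 129 and 194 counts per 100 feeder marker counts in PTC, beside 120 to 138 in the others.

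Of the 21 other chains tested, 7 were called higher and 1 lower in NTC under TMM scaling, beside 21.5% and 12.9% of all genes. The median log2 fold change of these chains was 1.86. Scaled to the feeder markers, their median was -1.15, with 0 higher and 7 lower. For all genes it was -3.20, with 0.341% higher and 77.5% lower. Col28a1 (ENSMUSG00000068794, GRCm38 chromosome 6, 7997808 to 8192617), a chain described in peripheral nerve, had 35.7 and 91.6 CPM in the LOVA libraries, 46.4 and 85.3 CPM in the NTC libraries and 1.88 and 6.26 CPM in the PTC libraries. It rose by 3.98 (SE 0.67, adjusted p = 0.0143), which was the largest of all members in this contrast; the fold change stayed positive, at 1.14, under feeder marker scaling. Col6a5, a type VI chain, had 7.19 and 11.8 CPM in LOVA, 12.3 and 19.7 CPM in NTC and 0.753 and 2.17 CPM in PTC, and rose by 3.41 (SE 0.54, adjusted p = 0.0109). The other chains called higher were Col14a1 (2.26) and Col20a1 (2.26) of the fibril-associated group, Col6a6 (2.00), the transmembrane Col23a1 (1.50) and the short chain Col8a2 (1.38).

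More abundant chains of these types missed the threshold in edgeR and passed it with the other tools. Col6a1 (ENSMUSG00000001119, GRCm38 chromosome 10, 76708792 to 76726168), Col6a2 and Col6a3 assemble into the beaded filaments that surround most cells of connective tissue. Col6a1 had 814 and 1423 CPM in the LOVA libraries, 684 and 1127 CPM in the NTC libraries and 69.0 and 372 CPM in the PTC libraries, with 2.04 (SE 0.73, adjusted p = 0.0802) as its log2 fold change. Col6a2 had 602 and 1064 CPM in LOVA, 499 and 792 CPM in NTC and 63.4 and 292 CPM in PTC, with 1.86 (SE 0.68, adjusted p = 0.0823). Col6a3 had 395 and 740.0 CPM in LOVA, 420.1 and 847 CPM in NTC and 45.8 and 205 CPM in PTC, with 2.34 (SE 0.71, adjusted p = 0.0532). The 3 genes kept the same order of libraries within each group, B above A. Col8a1, a short chain of the net in Descemet's membrane and vessel walls, had 229 and 634 CPM in LOVA, 224 and 473 CPM in NTC and 18.1 and 88.6 CPM in PTC, with 2.70 (SE 0.81, adjusted p = 0.0525). Col12a1, which sits on the surface of type I fibrils and overlaps a non-coding gene, had 433 and 1152 CPM in LOVA, 572 and 1360 CPM in NTC and 39.3 and 219 CPM in PTC, with 2.90 (SE 0.85, adjusted p = 0.0519). In both, each NTC library was above each PTC library. In DESeq2 the adjusted p was 0.00797 for Col6a1, 0.0106 for Col6a2, 0.00169 for Col6a3, 0.0270 for Col8a1 and 0.0231 for Col12a1, and in limma-voom it was 0.0302, 0.0331, 0.0226, 0.0247 and 0.0216. Of the remaining chains, Col16a1 of the fibril-associated group had 1.99 (SE 0.68, adjusted p = 0.0690), Col7a1, which forms the anchoring fibrils of skin, had 1.42 (SE 0.69, adjusted p = 0.150), and Col26a1 had 0.94 (SE 0.31, adjusted p = 0.0562). DESeq2 called Col16a1 (adjusted p = 0.00733) and Col26a1 (adjusted p = 0.0296), and limma-voom Col16a1 (adjusted p = 0.0297), while limma-voom did not call Col20a1 (adjusted p = 0.0626) or Col6a6 (adjusted p = 0.0584).

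Of the 4 transmembrane chains, 3 had negative fold changes under all 3 scalings. Their median log2 fold change in NTC minus PTC was -1.29 over 4 genes, and -4.55 and -0.39 when scaled to feeder and pan-germ-cell markers. The medians of all genes under the feeder and pan-germ-cell scalings were -3.20 and 0.93. Col25a1 (ENSMUSG00000058897, GRCm38 chromosome 3, 130131501 to 130599877), known from neurons and motor nerve endings, had 2.78 and 2.15 CPM in the LOVA libraries, 1.59 and 1.93 CPM in the NTC libraries and 5.77 and 5.63 CPM in the PTC libraries. It fell by 1.68 on the log2 scale (SE 0.38, adjusted p = 0.0201), with both NTC libraries below both PTC libraries. Col17a1, the hemidesmosome collagen of epithelia, had 5.34 and 2.32 CPM in LOVA, 5.02 and 3.55 CPM in NTC and 11.3 and 8.27 CPM in PTC, with -1.19 (SE 0.46, adjusted p = 0.0845). Col13a1, known from the neuromuscular junction, had 1.07 and 0.258 CPM in LOVA, 1.67 and 0.774 CPM in NTC and 4.14 and 2.26 CPM in PTC, with -1.39 (SE 0.72, adjusted p = 0.168). DESeq2 called Col17a1 lower (adjusted p = 0.0499). Library values of Col17a1 and Col13a1 are given because they were seen to lie below PTC. Col23a1 rose instead under TMM scaling, by 1.50 (SE 0.41, adjusted p = 0.0338), while its fold change scaled to the feeder markers was -1.63. Per 100 feeder marker counts the 4 genes together had 0.135 and 0.0851 counts in NTC, against 2.53 and 0.688 in PTC. Pan-germ-cell markers were lower in NTC as well, 0.293% and 0.193% of counts against 0.491% and 0.496% in PTC, and their part in these values was not tested. Outside this class, Col9a3 (-1.30, a gene that overlaps Tcfl5), Col22a1 (-0.64) and Col6a4 (-0.31) had negative fold changes and none passed the test.

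**Figure D4:**
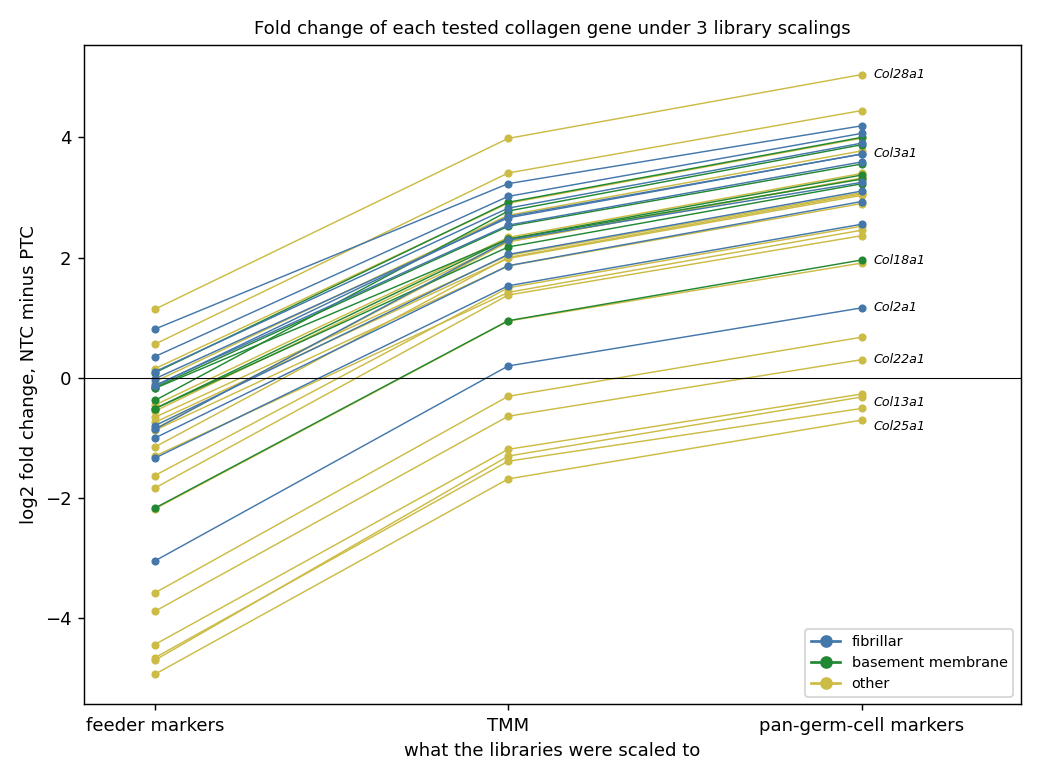
Log2 fold change, NTC minus PTC, of the 39 tested collagen genes with libraries scaled to feeder markers, by TMM and to pan-germ-cell markers; each line is 1 gene. The collagen median is -0.74, 2.18 and 3.23 in that order, beside -3.20, -0.025 and 0.93 for all genes. Most lines thus cross 0 under feeder marker scaling, and Col28a1 lies at the top and Col25a1 at the bottom under all 3.

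Within a group most collagens differed between libraries in the same direction as the feeder markers. The median B to A fold of the 39 tested chains was 1.81 in LOVA, 1.64 in NTC and 3.21 in PTC. The feeder marker share, taken like these folds after TMM scaling, was 2.05, 1.75 and 3.03 times as high in B as in A. In LOVA 31 of the 39 chains were higher in B, in NTC 34 and in PTC 31. On the log2 scale the median B to A fold of these chains was 0.86, 0.72 and 1.68 in LOVA, NTC and PTC. That of all genes tested was 0.016, -0.0013 and 0.052. Collagen levels and the feeder share were thus both higher in B in each group, and the part of the feeder share in the differences between treatments was not tested beyond the scaling to these markers.

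Of 9 ratios between chains that were computed within each library, both PTC libraries lay outside the range of the other 4 for 7 and within it for 2. The share of other gene pairs that separate in this way was not computed. Several of the ratios have Col1a1, Col4a1 or Col6a1 as their denominator, so they are not separate results. Per kb, Col1a2 stood at 2.23 and 2.22 times Col1a1 in LOVA, 2.19 and 2.06 times in NTC and 0.958 and 1.65 times in PTC. Col3a1 stood at 4.0 and 4.02 times Col1a1 in LOVA, 3.63 and 3.76 in NTC and 1.51 and 2.69 in PTC. The ratio of Col5a2 to Col5a1 was 1.42 and 1.46 in LOVA, 1.90 and 1.50 in NTC and 0.484 and 0.800 in PTC. For these 3 ratios both PTC libraries lay below the other 4. For Col4a2 over Col4a1, with 0.480 and 0.482 in LOVA, 0.489 and 0.557 in NTC and 0.638 and 0.680 in PTC, they lay above them. Col6a3 over Col6a1, with 0.197 and 0.211 in LOVA, 0.249 and 0.305 in NTC and 0.269 and 0.223 in PTC, was one of the 2 without such a separation. The other was Col4a5 over Col4a1, with 0.0252 and 0.0446 in LOVA, 0.0321 and 0.0460 in NTC and 0.0395 and 0.0285 in PTC. Ratios within a library do not depend on its scaling, and 2 libraries a group allow no exact permutation p below 0.333. Col3a1 made up 28.6% and 29.9% of the summed collagen level per kb in LOVA, 28.9% and 31.1% in NTC and 18.4% and 25.7% in PTC.

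**Figure D5:**
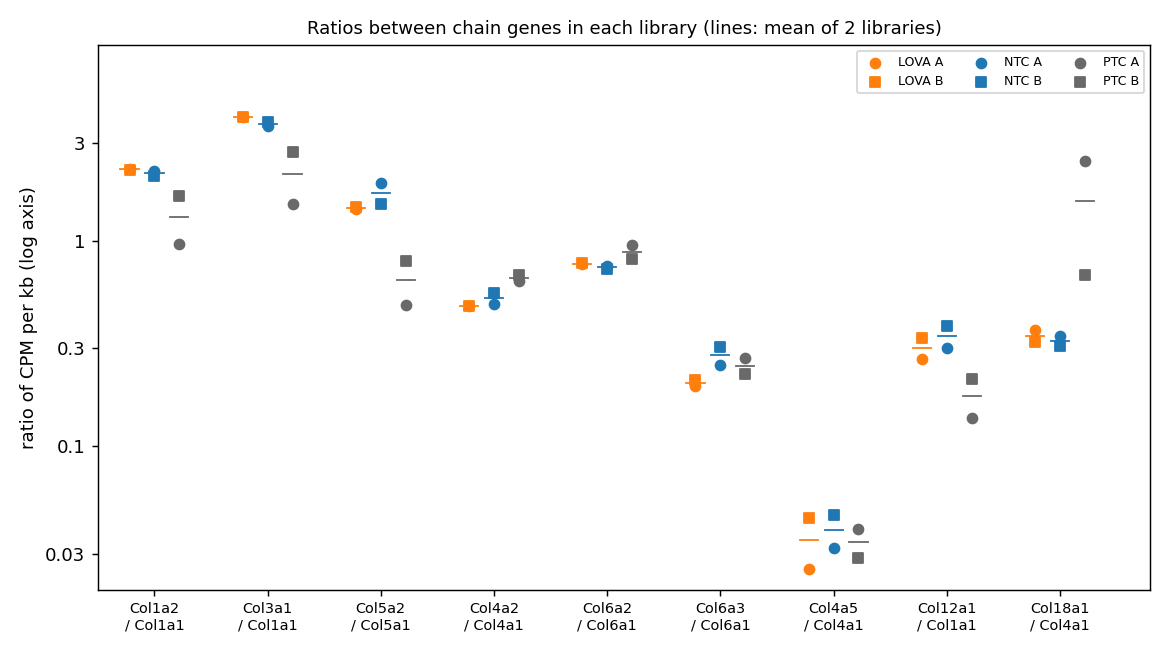
Ratio of CPM per kb between pairs of chain genes in each library on a log axis, with lines at the mean of the 2 libraries of a group. Both PTC libraries lie below the other 4 for Col1a2, Col3a1 and Col12a1 over Col1a1 and for Col5a2 over Col5a1, above them for Col4a2 and Col18a1 over Col4a1 and Col6a2 over Col6a1, and among them for Col6a3 over Col6a1 and Col4a5 over Col4a1.

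Genes that make and mature collagen were mostly called higher in NTC with TMM scaling, in the same direction as the chains. Scaled to the feeder markers, Crtap, P3h3, P3h4, Serpinh1, Fkbp14, Sec24d, Loxl3 and Loxl4 among those named had negative fold changes. The median of all genes was -3.20 on that scale. Among all genes tested, 21.5% were called higher and 12.9% lower. Of 13 tested hydroxylases and glycosyltransferases, which modify the chains in the endoplasmic reticulum, 10 were called higher and 0 lower (median log2 fold change 1.52). P4ha3, a prolyl 4-hydroxylase subunit, had 41.3 and 66.6 CPM in NTC, against 2.51 and 7.97 CPM in PTC, and rose by 3.34 (SE 0.57, adjusted p = 0.0141). Crtap, a member of the prolyl 3-hydroxylation complex, rose by 2.81, P3h3 by 2.71 and P3h4 by 2.23. Of 11 folding and export genes, 8 were called higher and 0 lower (median 1.67). Serpinh1, the collagen chaperone HSP47, had 649.9 and 968 CPM in NTC, against 57.3 and 178 CPM in PTC, and rose by 2.78 (SE 0.54, adjusted p = 0.0184). Sparc, a collagen-binding matrix protein, rose by 3.13, the prolyl isomerase Fkbp14 by 2.14 and the COPII coat gene Sec24d by 1.93.

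Outside the cell, procollagen is trimmed and the fibrils are cross-linked. Of 8 propeptide proteinases and enhancers, 4 were called higher in NTC and 0 lower (median 1.60 under TMM scaling). The shares of all genes tested were 21.5% and 12.9%. They were Adamts2, which removes the N-propeptide (3.36), the enhancer Pcolce (3.15), and Tll1 (3.13) and Bmp1 (2.99), proteinases of the C-propeptide. All 5 lysyl oxidases, which start the cross-links, were called higher (median 2.72). Lox had 1351 and 2375 CPM in NTC, against 55.0 and 261 CPM in PTC, and rose by 3.56 (SE 0.77, adjusted p = 0.0249), and Loxl1, Loxl3 and Loxl4 rose by 3.74, 2.72 and 2.60. Feeder markers moved the same way, with 20 of 21 called higher and a median of 3.18. Lysyl oxidases, among which Lox had the most counts, made up 18.8 and 18.7 counts per 100 feeder marker counts in NTC, against 10.8 and 15.3 in PTC. Their sum was thus higher in both NTC libraries relative to all 21 markers. The sums of the other lists of genes that make and mature collagen were not higher in both. This depends on the markers chosen. Fn1 and Fbln1 held 7212 and 2284 of the marker counts in PTC A, and the sums were not computed without them. Hydroxylases and glycosyltransferases made up 21.7 and 15.8 counts per 100 feeder marker counts in NTC, against 161 and 57.7 in PTC. P4hb had the most counts of that list, 12673 and 18988 in NTC and 16175 and 23979 in PTC. Folding and export genes made up 37.4 and 31.8 in NTC, against 74.2 and 46.0 in PTC. Proteinases and enhancers made up 7.27 and 6.40 in NTC, against 5.32 and 6.71 in PTC.

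Partners and receptors had calls in both directions under TMM scaling. Scaled to the feeder markers, Lama4, Lamc1, Nid1, Itga10 and Lair1 among those named had negative fold changes, where the median of all genes was -3.20. Of 14 tested laminins, nidogens and other partners of type IV collagen in basement membranes, 6 were called higher and 2 lower in NTC (median 1.04), beside 21.5% and 12.9% of all genes tested. Lama2 (2.90), Lama4 (2.68), Lamc1 (1.45) and the linker Nid1 (1.79) rose. Lama3, an epithelial laminin chain, fell by 1.23 (SE 0.35, adjusted p = 0.0386), and had 6.20 and 3.78 CPM in LOVA, 5.98 and 4.96 CPM in NTC and 14.6 and 11.0 CPM in PTC. Nid2 fell by 0.52 (SE 0.16, adjusted p = 0.0440), and had 149 and 167 CPM in LOVA, 127 and 136 CPM in NTC and 198 and 178 CPM in PTC; scaled to the pan-germ-cell markers, its fold change was 0.45. Of 9 tested collagen receptors 7 were called higher and 1 lower (median 2.39). The lower calls, 2 of 14 and 1 of 9, were shares near that of all genes. The fibroblast collagen receptor tyrosine kinase Ddr2 (3.25) and the integrin chains Itga11 (3.05) and Itga10 (2.57) rose. Ddr1, the relative of Ddr2 known from epithelia, fell by 0.71 (SE 0.17, adjusted p = 0.0230), with 79.2 and 83.9 CPM in NTC, against 147 and 121 CPM in PTC, and had a fold change of 0.26 when scaled to the pan-germ-cell markers. Lair1, an inhibitory collagen receptor of leukocytes, had 0.855 and 0.602 CPM in LOVA, 2.23 and 2.32 CPM in NTC and 0.251 and 0.426 CPM in PTC, and rose by 2.69 (SE 0.61, adjusted p = 0.0199). All 10 macrophage markers were called higher in NTC too, with a median of 2.66, and their part in the Lair1 value was not tested. Lama3, Nid2 and Ddr1 were named after their direction was seen.

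Lovastatin in place of GDNF (LOVA minus PTC) gave a like picture by share of counts. Collagens took 1.17% and 2.16% of counts in LOVA, against 0.125% and 0.556% in PTC, and the LOVA mean was 4.89 times the PTC mean. Per 100 feeder marker counts there were 138 and 137 collagen counts in LOVA, against 129 and 194 in PTC. The ranges thus overlapped relative to the whole marker list, in which Fn1 and Fbln1 held 7212 and 2284 counts in PTC A. The ranges were not compared without these genes, so the overlap does not show that the groups were alike. Of the 39 chains 13 were called higher and 1 lower, beside 19.8% and 10.8% of all genes tested, and the median log2 fold change was 2.03, beside 0.0034 for all genes; scaled to the feeder markers, the median was -0.60, with 0 higher and 8 lower, beside 0.205% and 75.5% of all genes tested. For 32 chains both LOVA libraries lay above both PTC libraries, as they did for 38.4% of all genes, and for 4 both lay below, beside 37.9%. DESeq2 called 26 higher and 3 lower, beside 22.8% and 15.2% of all genes tested, and limma-voom 24 and 1, beside 19.8% and 13.4%. Without LOVA B no collagen was called in edgeR, without PTC A 1 was called higher, without NTC B 5 and without NTC A 6, and none lower. Without PTC B 24 were called higher and 0 lower, and without LOVA A 10 higher and 2 lower.

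By class, 5 of 11 fibrillar chains were called higher with a median of 2.51, 3 of 7 basement membrane chains with a median of 2.19, and 5 of 21 other chains, with 1 lower and a median of 1.74. Scaled to the feeder markers, the medians were -0.031, -0.31 and -1.17, beside -2.99 for all genes. Col28a1 had the highest fold change, 3.93 (SE 0.67, adjusted p = 0.0190), followed by Col24a1 at 3.16 (SE 0.85, adjusted p = 0.0349). Col8a1 passed the test here, at 3.01 (SE 0.81, adjusted p = 0.0442). Col4a5 rose by 3.00 (SE 0.79, adjusted p = 0.0404), Col4a1 by 2.71 (SE 0.73, adjusted p = 0.0435) and Col18a1 by 1.20 (SE 0.30, adjusted p = 0.0301). Among fibrillar chains Col5a2 rose by 2.87 and Col27a1 by 2.83, and Col6a5 rose by 2.65. Col25a1 again was the only chain called lower in edgeR; it fell by 1.20 (SE 0.37, adjusted p = 0.0488). Col13a1 had the lowest fold change, -2.21 (SE 0.77, adjusted p = 0.0653), and Col17a1 had -1.34 (SE 0.46, adjusted p = 0.0669). DESeq2 called both lower, with an adjusted p of 0.0287 for Col13a1 and 0.0274 for Col17a1. Col1a1, Col1a2, Col3a1, Col5a1, Col11a1, Col4a2, Col6a1, Col6a2, Col6a3, Col12a1 and Col16a1 were not called in edgeR and were called higher with both DESeq2 and limma-voom. This contrast shares its PTC libraries with NTC minus PTC, so the like values of both are not separate evidence. Among all genes tested, 19.8% were called higher and 10.8% lower in this contrast. Of the helper genes, 10 of 13 hydroxylases and glycosyltransferases, 7 of 11 folding and export genes, 4 of 8 proteinases and enhancers and 5 of 5 lysyl oxidases were called higher and 0 lower. Basement membrane partners had 7 higher and 1 lower of 14, the lower one again Lama3 (-1.35 (SE 0.36, adjusted p = 0.0334)), and receptors 5 higher and 0 lower of 9.

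Lovastatin added to medium without GDNF (LOVA minus NTC) gave no called collagen. The median log2 fold change was -0.029, over a range from -0.83 for Col13a1 to 1.01 for Col9a3, and 0 of 39 chains had even an unadjusted p under 0.05, which 3.48% of all genes reached. In edgeR 0% of all genes tested were called in either direction. DESeq2 called 25 genes higher and 95 lower and limma-voom 0 and 4, with 0 collagens in either. Medians by class were 0.0049 for fibrillar, 0.046 for basement membrane and -0.15 for other chains. Col3a1 differed by 0.0049 (95% interval -1.99 to 2.00), Col1a1 by -0.11 (-1.68 to 1.47) and Col4a1 by 0.19 (-1.57 to 1.95). Intervals of this width include changes of several fold either way, so a missed threshold does not show that the groups were alike. The narrower interval of Col18a1, -0.46 to 0.97 around 0.25, lies within 1 log2 unit of 0 at both ends.

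Libraries of LOVA and NTC overlapped for most chains, and most chains were lower in A than in B in both groups. Both LOVA libraries lay above both NTC libraries for 4 chains and below them for 4, beside 12.7% and 13% of all genes. Those above were Col2a1, Col9a3, Col22a1 and Col25a1, and those below Col6a5, Col11a2, Col15a1 and Col26a1. Col25a1, for example, had 2.78 and 2.15 CPM in LOVA, against 1.59 and 1.93 CPM in NTC, and Col6a5 had 7.19 and 11.8 CPM in LOVA, against 12.3 and 19.7 CPM in NTC. None of the helper, partner or receptor genes was called. Lair1 had 0.855 and 0.602 CPM in LOVA, against 2.23 and 2.32 CPM in NTC (-1.63 (SE 0.58, adjusted p = 1.00)), while the macrophage markers had a median of -2.14 in the same contrast, with 0 of 10 called. Feeder markers, with a median of -0.14 and 0 of 21 called, took 0.843% and 1.57% of counts in LOVA, against 1.01% and 1.63% in NTC.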

How the data were processed

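Gene counts came from 6 RNA libraries of a mouse spermatogonial stem cell line on fibroblast feeders, made with a strand-specific kit per the labels' protocols. The authors deposited counts for Ensembl genes, all whole numbers and not normalized. The submitters' processing notes name Trimmomatic, Bowtie2, RSEM, DESeq2 and mm10, with no versions or roles; whether the counts are rounded RSEM estimates, and whether counting used strand, is not given in the sources used here. Reads of the 11 tested members that overlap another gene of the table may therefore be shared. Library letters are those of the deposited columns, and nothing pairs them with the labels' replicate numbers.

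Symbols and positions came from GENCODE M21 (GRCm38), which matched 31363 of 31384 genes. After filterByExpr, 16121 genes were fitted in edgeR 4.0.16 (R 4.3.3) with TMM scaling, 1 coefficient per group, robust quasi-likelihood in its legacy form and 3 residual degrees of freedom. The Benjamini-Hochberg adjusted p over all genes tested had to be under 0.05. The common biological coefficient of variation was 0.260. SEs and 95% intervals came from the same fit. A floor of 3 counts equals 0.128 to 0.258 CPM. Levels per kb used the length of the transcript with the longest coding sequence. On simulated data 80.4%, 75.5% and 82.7% of 4-fold changes were recovered in NTC minus PTC, in LOVA minus NTC and in LOVA minus PTC, as were 17.2%, 21.2% and 15.6% of 2-fold changes. The changed genes were drawn at random from all genes tested. In the fit of the deposited counts the median SE of all genes tested was 0.30 in NTC minus PTC, beside 0.68 for the collagens. The recovered shares therefore do not carry over to the chains. Alternatives used DESeq2 1.42.0, limma-voom 3.58.1, other size factors, filters and marker scalings, and each library left out.

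Members, gene lists and the naming rule were chosen with earlier results of these data known. The rule named 16 abundant or paired chains, the 8 called members with the largest change per contrast, members called against the majority, and up to 4 called genes per list. Other members are named by their fold change alone.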

Additional observations from a re-analysis of the deposited data

How the results depend on the processing

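Collagens called higher and lower in NTC minus PTC numbered 29 and 2 with DESeq2, 26 and 1 with limma-voom, 30 and 2 without a filter on low counts, 29 and 0 scaled to pan-germ-cell markers and 0 and 9 scaled to feeder markers. In LOVA minus PTC they numbered 26 and 3, 24 and 1, 30 and 3, 20 and 0, and 0 and 8 in the same order. Leaving out a library gave 0 to 23 higher and 0 to 2 lower in NTC minus PTC, and 0 to 24 higher and 0 to 2 lower in LOVA minus PTC. Of the 16 calls in NTC minus PTC, 0 held without NTC B and 3 without PTC A; of the 14 in LOVA minus PTC, 0 held without LOVA B and 1 without PTC A. LOVA minus NTC gave 0 calls of collagens under every alternative run. RLE size factors and the filter at 1 CPM moved no count of collagens called by over 1.5 times. The cause of these changes was not tested.

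A replicate block by column letter rests on the letters alone. With it, 30 collagens were called higher and 2 lower in NTC minus PTC. Of all 16121 genes tested, 4421 were called higher and 3632 lower. In LOVA minus PTC 28 collagens were called higher and 3 lower, beside 4280 and 3466 of all genes. In LOVA minus NTC 0 collagens were called, beside 18 higher and 72 lower of all genes. Deviations of same-lettered libraries correlated across genes at 0.31 for NTC and PTC, 0.48 for LOVA and NTC and 0.35 for LOVA and PTC. Calls that edgeR missed without the block passed with it, among them Col1a1, Col1a2, Col3a1, Col5a1, Col4a2, Col6a1, Col6a2, Col6a3 and Col12a1 in both contrasts with PTC and Col8a1 in NTC minus PTC.

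Feeder marker scaling moved the median of all genes by -3.18 in NTC minus PTC and -2.99 in LOVA minus PTC, and pan-germ-cell scaling by 0.96 and 0.89. Under feeder marker scaling these log2 fold changes turned negative in NTC minus PTC: Col11a2 -0.86, Col14a1 -0.56, Col15a1 -0.18, Col16a1 -0.74, Col18a1 -2.17, Col1a1 -0.80, Col1a2 -0.13, Col20a1 -0.85, Col23a1 -1.63, Col26a1 -2.18, Col27a1 -0.14, Col2a1 -3.05, Col3a1 -0.017, Col4a1 -0.16, Col4a2 -0.51, Col4a4 -0.51, Col4a6 -0.38, Col5a1 -1.0, Col5a3 -1.34, Col6a1 -0.66, Col6a2 -0.87, Col6a3 -0.45, Col6a6 -1.15, Col7a1 -1.30, Col8a1 -0.065, Col8a2 -1.84, Crtap -0.13, P3h3 -0.22, P3h4 -0.80, Serpinh1 -0.076, Fkbp14 -0.98, Sec24d -1.17, Loxl3 -0.066, Loxl4 -0.37, Lama4 -0.13, Nid1 -1.20, Lamc1 -1.64, Lair1 -0.19, Itga10 -0.36. In LOVA minus PTC 30 of the 39 tested collagens had negative fold changes under the same scaling, beside 5 under TMM scaling. Of all 16121 genes tested, 15125 and 8038 did. Sign changes in that contrast were listed for part of the members only, among them Col18a1 -1.77, Col1a1 -0.77 and Col6a5 -0.030. Under pan-germ-cell scaling Col22a1 0.30, Col6a4 0.67, Nid2 0.45, Ddr1 0.26 turned positive in NTC minus PTC. Per feeder marker count, the log2 ratio of class sums was -0.24 for fibrillar, -0.76 for basement membrane and -0.54 for other chains in NTC minus PTC, and -0.13, -0.47 and -0.31 in LOVA minus PTC. In LOVA minus NTC, Col1a1 was 0.029 under feeder marker scaling, and Col3a1 was -0.010 with RLE size factors and with DESeq2, -0.036 with limma-voom, -0.024 without a filter, -0.023 with pan-germ-cell scaling and -0.025 with the replicate block. Leaving out a library gave -0.74 to 0.41 for Col1a1, -0.63 to 0.56 for Col3a1, -0.30 to 0.55 for Col4a1 and -0.11 to 0.54 for Col18a1.

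Depth limits the low chains. The lowest library had 1 count of Col4a4, 2 of Col24a1, 3 of Col13a1, 4 of Col4a6 and of Col6a4, 6 of Col9a3 and 8 of Col20a1, and the 5 untested members were as low.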
